A study of Mus musculus with 6 samples.

Results

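Genes that cells use to copy their DNA and to divide were followed across 6 array libraries of mouse colon, 3 labelled distal and 3 labelled proximal. The set is a list of 40 cell cycle genes, 15 of DNA synthesis and 25 of mitosis, and a gene entered when a probe set of the array was annotated to it alone, with the brightest probe set by mean standing for it. By that rule 39 of the 40 genes were measured (15 of DNA synthesis and 24 of mitosis) among 18193 genes in all, and Ccnb1 was dropped because no probe set was annotated to it alone. The colon came from untreated female C57BL/6J mice, and the distal and the proximal libraries share that strain, sex and lack of treatment; the age is not given in the sources used here. The design text says that 3 animals gave tissue of both regions, without saying which numbers share an animal, so p-values here reflect only how much these libraries vary, which may be technical. All values are log2 expression, all differences are distal minus proximal on that scale, and levels are compared between libraries and never between genes.

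In the colon, cells divide in the crypts, where stem cells at the base and their transit amplifying daughters renew the epithelium, and division stops as cells move to the surface. Before S phase the MCM2-7 helicase is loaded on origins by CDC6 and CDT1, and cyclin E with CDK2 helps to start synthesis, which needs PCNA at the fork and a supply of deoxynucleotides. In mitosis cyclin B with CDK1 drives entry, the Aurora and Polo kinases build the spindle, the spindle checkpoint holds the cell until chromosomes are attached, and CDC20 with the anaphase promoting complex then ends the hold. Transcription of the S phase genes is driven largely by E2F factors, and that of the mitotic genes by MuvB complexes with MYBL2 and FOXM1. These are whole tissue samples, in which fewer dividing cells and less RNA per dividing cell cannot be told apart.

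The libraries labelled proximal 1 and distal 3 stand apart from their labels in regional genes. Hoxd13, a HOX gene that patterns the hind end of the gut, measured 12.69, 12.62 and 4.90 in distal 1, 2 and 3, against 12.54, 4.83 and 5.11 in proximal 1, 2 and 3. The libraries are therefore named by their labels throughout, and the comparison was made with all 6 libraries and without these 2. The epithelial marker Vil1, the brush border protein villin, was bright in every library, with 13.51, 13.55 and 13.74 in distal 1, 2 and 3 and 13.35, 13.81 and 13.79 in proximal 1, 2 and 3. The muscle marker Tagln ran from 14.28 to 14.42 in distal and from 13.94 to 14.34 in proximal libraries. Array medians ran from 7.90 to 8.02 in distal and from 7.92 to 7.97 in proximal libraries.

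On their medians the cell division genes were low in the libraries labelled distal 1 and distal 2 and higher in the other 4 libraries, with proximal 1 between for DNA synthesis. The median deviation of the 24 mitosis genes from each gene's mean over the 6 libraries was -0.32, -0.13 and 0.15 in distal 1, 2 and 3, and 0.07, 0.08 and 0.12 in proximal 1, 2 and 3. For the 15 DNA synthesis genes it was -0.14, -0.18 and 0.11 in distal 1, 2 and 3, against -0.05, 0.09 and 0.10 in proximal 1, 2 and 3. Over all 18193 genes these medians stayed between -0.05 and 0.03. Distal 1 was the lowest library for 27 of the 39 genes (69.2%), where it was the lowest for 19.2% of all genes, and it was the highest for 0 of the 39. Distal 2 was the lowest for 7 of the 39 (17.9%), less often than for all genes (28.2%). Distal 3 was the highest library for 14 of the 39 genes (35.9%, against 15% of all genes) and the lowest for 0.

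**Figure D1:**
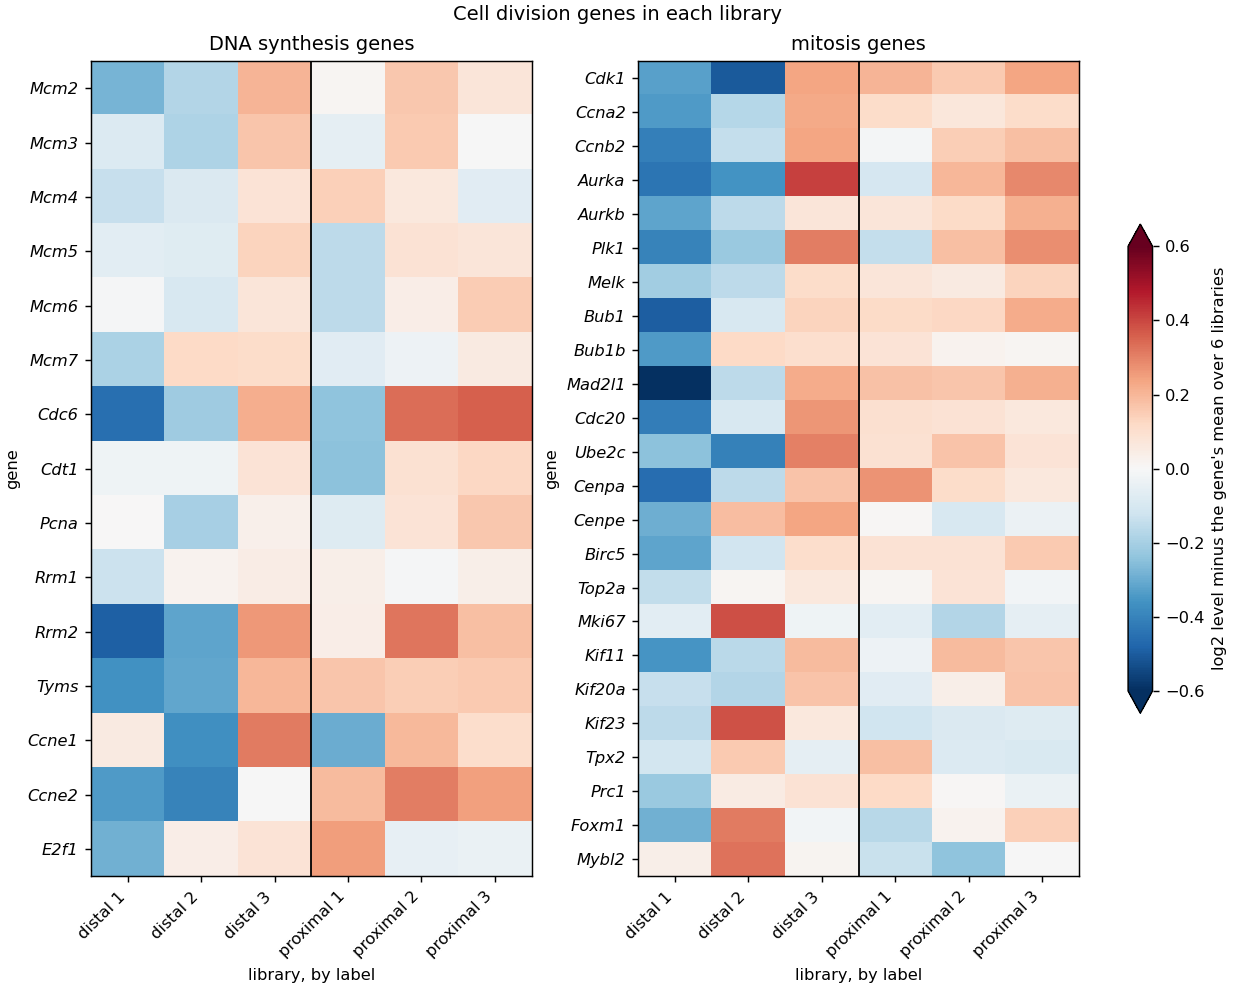
Each row is a cell division gene and each column a library by its label, and colour gives the log2 level minus the gene's mean over the 6 libraries. Blue, lower than the mean, fills most of the columns distal 1 and distal 2, although distal 2 is the highest library for 6 genes (Mcm7, Bub1b, Mki67, Kif23, Foxm1 and Mybl2).

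**Figure D2:**
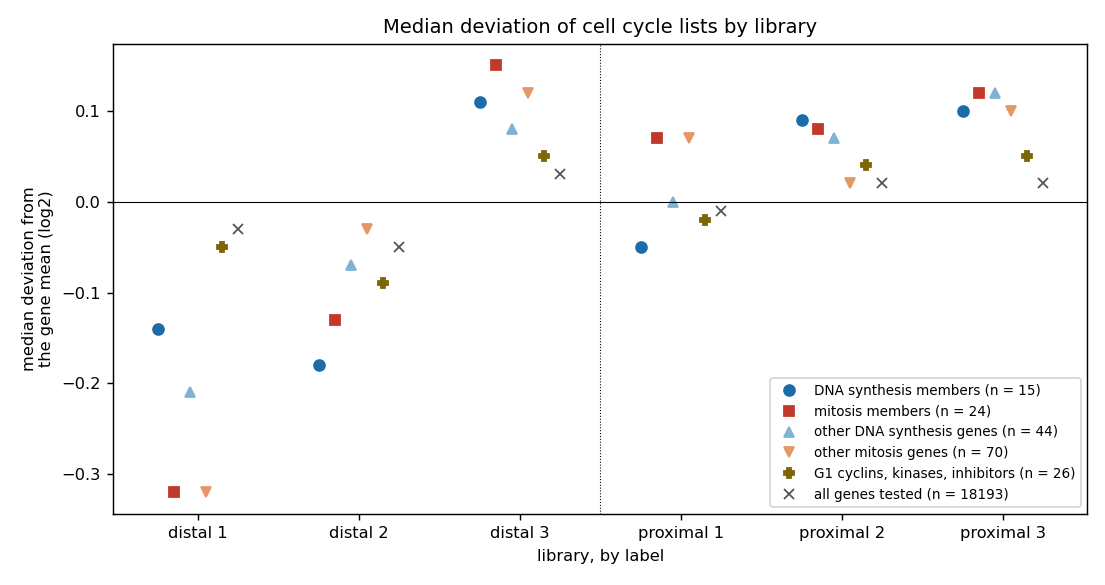
Points give the median deviation from the gene mean (log2) of 5 lists of cell cycle genes and of all genes tested in each library. The mitosis genes sit at -0.32 in distal 1, while all genes tested stay within -0.05 and 0.03.

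The 2 libraries that stand apart took different places in these genes. Distal 3 lay nearer the mean of proximal 2 and 3 than that of distal 1 and 2 for 36 of the 39 genes (92.3%, against 70.9% of all genes), which is its place in the regional genes too. Proximal 1 lay nearer distal 1 and 2 for 14 of the 39 (35.9%), against 57.2% of all genes, and so mostly kept to its label. Within the set it was nearer distal 1 and 2 for 6 of 24 mitosis genes (25.0%) and for 8 of 15 DNA synthesis genes (53.3%), of which 6 are among the 8 genes of origin licensing. Distal 1 and 2 were both below the other 4 libraries for 21 of the 39 genes (53.8%), against 20.2% of all genes, and both above them for 1, Mybl2 (against 12.8% of all genes). These last counts were chosen after the values were seen, and none of these library counts was tested.

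With all 6 libraries as labelled, none of the 39 genes passed the limma test at an adjusted p of 0.05, nor did any other gene (0% of 18193), while array weights gave 18 members among 5579 genes (30.7% of all). At an unadjusted p of 0.05 there was 1 gene lower in distal libraries, Ccne2 (against 2.14% of all genes), and 0 were higher (against 0.901%). The 3 distal values stood clear of the 3 proximal ones for 1 gene lower in distal, Ccne2 (4.60% of all genes), and for 1 gene higher in distal, Mybl2 (2.73% of all genes). Differences were below 0 for 31 of the 39 genes (79.5%), against 53.7% of all genes, and this count was 27 after quantile normalization and 25 after centring each array on its median. The 53.7% is of the values before either rescaling. The median difference was -0.09 for DNA synthesis and -0.18 for mitosis genes, beside -0.02 for all genes, and every member had a limma adjusted p of at least 0.824. These medians were -0.04 and -0.13 after quantile normalization and -0.03 and -0.12 after median centring, and the DNA synthesis median was -0.05 with a filter on low values. The median over all genes rose as well, from -0.02 to 0.009 with quantile normalization and to 0.043 with median centring. Without distal 3 the medians of DNA synthesis and mitosis genes became -0.16 and -0.33, and without distal 1 they became -0.04 and -0.06. Without distal 2 the DNA synthesis median was -0.06.

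Without proximal 1 and distal 3, that is with distal 1 and 2 against proximal 2 and 3, 7 of the 39 genes were lower in distal libraries and 0 higher (limma adjusted p of 0.05), and 32 did not pass. The 7 were Cdc6, Rrm2, Tyms and Ccne2 of DNA synthesis and Cdk1, Aurka and Plk1 of mitosis. The share lower in distal was 17.9%, beside 11.5% of all genes, and the share of all genes higher was 7.71%. In both directions together 17.9% of the members and 19.2% of all genes passed, so the number of calls does not set the members apart. Differences were below 0 for 34 of the 39 (87.2%, against 56.1% of all genes), and for 31 and 29 after quantile normalization and median centring. The 56.1% is of the values before either rescaling. The median was -0.21 for DNA synthesis and -0.33 for mitosis genes, against -0.045 for all genes. After quantile normalization and median centring the median over all genes was 0.007 and 0.045. These 2 libraries were left out for their own profiles, so p-values of this comparison overstate the evidence. Of the 4 libraries kept, distal 1 alone had a high mean over 10 pancreatic acinar markers. That mean was 12.58 in distal 1 and 7.19 in distal 2, against 7.18 and 6.98 in proximal 2 and 3. The part of this in the differences was not tested. With each probe set tested alone 12 of the 39 genes had a probe set past the threshold in either direction (21.6% of all probe sets passed), among them 1 of Rrm1 and 1 of Tyms that were higher in distal. The 12 counts genes and the 21.6% counts probe sets, so they cannot be compared. The 39 genes had 89 probe sets, and any 1 of a gene's probe sets was enough. The count was 0 at an adjusted p of 0.01, and leaving out any 1 of the 4 libraries (distal 1, distal 2, proximal 2 or proximal 3) left 0 members past the threshold.

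**Figure D3:**
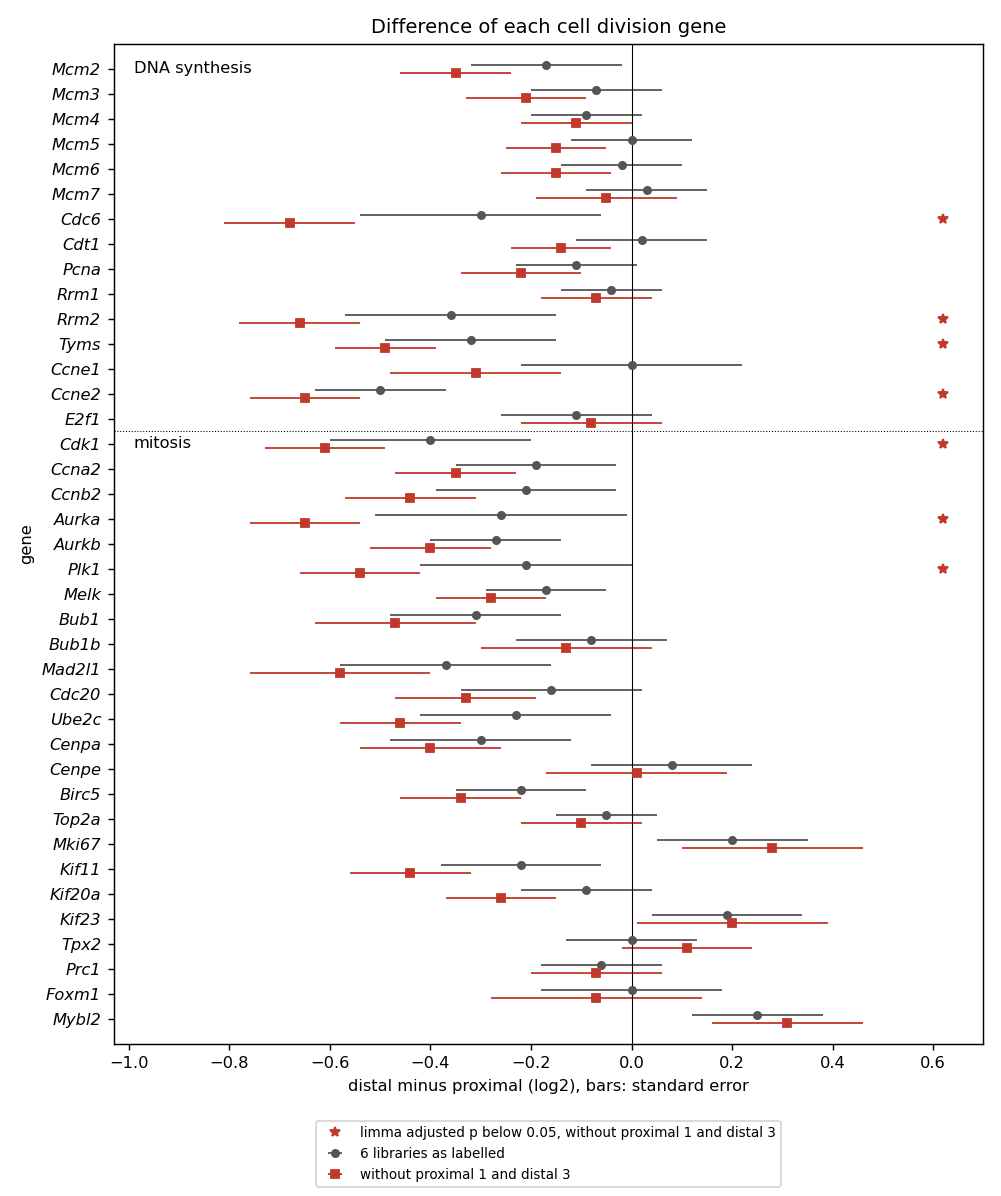
For each gene the distal minus proximal difference (log2) with its standard error is shown for the 6 libraries as labelled (grey circles) and without proximal 1 and distal 3 (red squares), and stars mark the 7 genes past a limma adjusted p of 0.05 without these 2 libraries. Most squares lie left of 0, down to -0.68 for Cdc6, and those of Mki67, Kif23, Tpx2, Cenpe and Mybl2 lie right of it.

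The stretches before the genes' starts were compared for motifs of cell cycle transcription. Promoters of RefSeq (GRCm38.p6, 250 bases before to 50 after the start, 5′ to 3′ on the gene's strand) were found for 32 of the 39 genes and searched on both strands for 5 motifs. TTTGAA and TTTAAA are forms of the cell cycle homology region that MuvB complexes bind, CCAAT is the site of the factor NF-Y, and TTTCCCGC and TTTGGCGC are forms of the E2F site. TTTGAA was present in 13 of 19 mitosis promoters (68.4%) and in 1 of 13 DNA synthesis promoters (7.69%), that of Mcm2, against 17.9% of the 32851 promoters in the table. TTTGGCGC was in 4 of the 13 DNA synthesis promoters (30.8%), those of Mcm3, Mcm5, Mcm6 and Cdt1, and TTTCCCGC in 3 (23.1%), those of Mcm3, Mcm7 and Cdc6, and neither was in any of the 19 mitosis promoters, against 0.514% and 1.07% of all. CCAAT was in 15 of 19 mitosis (78.9%) and 8 of 13 DNA synthesis promoters (61.5%), against 37.4% of all, and TTTAAA in 5 (26.3%) and 3 (23.1%), against 13.2%. A match describes the letters and is not shown to be a bound site.

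The promoters of Cdk1, Bub1, Plk1 and Cdc6 are shown as examples of both kinds, with every match in capitals. Cdk1 and Bub1 are among the 4 genes of the smallest unadjusted p as labelled that had an entry, and the other 2 of those, Mybl2 and Tyms, held 0 matches. Plk1 and Cdc6, which passed without proximal 1 and distal 3, were picked as examples after their matches were seen. Aurka and Rrm2 passed too and held matches, and are not shown. The promoters shown, of Cdk1, Bub1, Plk1 and Cdc6, lie at chr10:69352863-69353162 (minus strand), chr2:127831810-127832109 (minus strand), chr7:122159185-122159484 (plus strand) and chr11:98907901-98908200 (plus strand), in that order. Cdk1 held TTTGAA 2 times and CCAAT 3 times, Bub1 CCAAT 2 times, Plk1 TTTAAA 2 times, TTTGAA 1 time and CCAAT 1 time, and Cdc6 TTTCCCGC 1 time, on the other strand. No matches overlapped.
Cdk1: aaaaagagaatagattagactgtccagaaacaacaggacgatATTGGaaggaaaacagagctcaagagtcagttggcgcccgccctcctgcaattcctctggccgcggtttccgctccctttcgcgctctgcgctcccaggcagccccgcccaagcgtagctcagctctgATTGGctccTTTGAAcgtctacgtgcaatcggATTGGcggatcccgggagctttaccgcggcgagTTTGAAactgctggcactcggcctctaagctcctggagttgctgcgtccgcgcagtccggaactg
Bub1: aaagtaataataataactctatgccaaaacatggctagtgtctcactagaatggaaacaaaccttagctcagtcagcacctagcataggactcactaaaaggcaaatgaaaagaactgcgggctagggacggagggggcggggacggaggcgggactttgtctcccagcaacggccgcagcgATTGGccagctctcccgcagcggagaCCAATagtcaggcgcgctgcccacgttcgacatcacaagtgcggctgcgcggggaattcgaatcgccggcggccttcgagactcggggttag
Plk1: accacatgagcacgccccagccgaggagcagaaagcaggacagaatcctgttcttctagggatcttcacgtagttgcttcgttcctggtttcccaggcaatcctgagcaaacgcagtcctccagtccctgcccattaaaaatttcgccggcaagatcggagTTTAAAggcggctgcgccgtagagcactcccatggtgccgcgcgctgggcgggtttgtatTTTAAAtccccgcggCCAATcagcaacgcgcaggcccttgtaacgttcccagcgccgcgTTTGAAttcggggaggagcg
Cdc6: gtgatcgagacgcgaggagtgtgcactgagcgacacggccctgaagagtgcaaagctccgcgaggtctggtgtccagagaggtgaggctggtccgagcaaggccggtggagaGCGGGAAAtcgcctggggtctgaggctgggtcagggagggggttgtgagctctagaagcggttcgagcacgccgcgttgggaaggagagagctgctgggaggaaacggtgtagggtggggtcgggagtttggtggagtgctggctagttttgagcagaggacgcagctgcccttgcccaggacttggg

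Among the genes of origin licensing, Cdc6 differed most. Cdc6, which loads the helicase on origins, measured 8.55, 8.79 and 9.22 in distal 1, 2 and 3, against 8.76, 9.34 and 9.36 in proximal 1, 2 and 3. The groups overlapped, with distal 3 near proximal 2 and 3 and proximal 1 near distal 2. Its difference was -0.30 (SE 0.24, limma adjusted p = 0.824) as labelled and -0.68 (SE 0.13, limma adjusted p = 0.0222) without proximal 1 and distal 3, or 1.60-fold lower in distal 1 and 2. Mcm2, a helicase subunit, had 9.71, 9.81 and 10.19 in distal 1, 2 and 3, against 10.00, 10.15 and 10.06 in proximal 1, 2 and 3. Distal 1 and 2 were lowest and distal 3 was highest, and the difference without proximal 1 and distal 3 was -0.35 (SE 0.11, limma adjusted p = 0.0878). Its other probe set gave -0.43 and passed in the fit of each probe set (limma adjusted p = 0.0461). Mcm4, another subunit, had 11.80, 11.85 and 12.02 in distal libraries, against 12.08, 12.00 and 11.87 in proximal libraries. Its whole range was small, with distal 1 and 2 just below proximal 3. The other subunits Mcm3, Mcm5, Mcm6 and Mcm7, and Cdt1, the partner of CDC6 in loading, differed by -0.21 to -0.05 without proximal 1 and distal 3 and did not pass (limma adjusted p from 0.272 to 0.857). For Mcm5, Mcm6 and Cdt1 proximal 1 was the lowest library, with 10.14, 11.21 and 11.04.

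Of the 4 genes of the fork and of nucleotide supply, Rrm2 was lower in distal 1 and 2 on all its probe sets, and Tyms was not settled. Rrm2, the S phase subunit of ribonucleotide reductase, measured 12.38, 12.55 and 13.13 in distal 1, 2 and 3, against 12.91, 13.19 and 13.05 in proximal 1, 2 and 3. Distal 1 and 2 were below the other 4 libraries, with a difference of -0.66 (SE 0.12, limma adjusted p = 0.0228) without proximal 1 and distal 3, and -0.36 (SE 0.21, limma adjusted p = 0.824) as labelled. The other probe sets of Rrm2 moved the same way and further, by -1.67 (SE 0.14, limma adjusted p = 0.00258 in the fit of each probe set) and -1.77 (SE 0.22, limma adjusted p = 0.00660) without proximal 1 and distal 3. The brightest probe set, the one used here, therefore gave the smallest of the 3 differences.

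Tyms, thymidylate synthase, had 7.67, 7.72 and 8.23 in distal 1, 2 and 3, against 8.20, 8.18 and 8.19 in proximal 1, 2 and 3, on the probe set used. Its difference was -0.49 (SE 0.10, limma adjusted p = 0.0311) without proximal 1 and distal 3. The other 3 probe sets of Tyms ran the other way in that comparison, with 0.88, 0.51 and 0.19, and the first of these passed in the fit of each probe set (limma adjusted p = 0.0126). The mean of its probe sets gave 0.27. Pcna, the sliding clamp of the fork, had 12.85, 12.65 and 12.88 in distal libraries and 12.77, 12.93 and 13.01 in proximal libraries, which overlap, and differed by -0.22 (SE 0.12, limma adjusted p = 0.268) without proximal 1 and distal 3. Rrm1, the partner subunit of Rrm2, differed by -0.07 (SE 0.11, limma adjusted p = 0.734) without proximal 1 and distal 3, and its other probe sets were split, with -0.55 and 0.56 (limma adjusted p = 0.0278 and 0.0383 in the fit of each probe set).

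**Figure D4:**
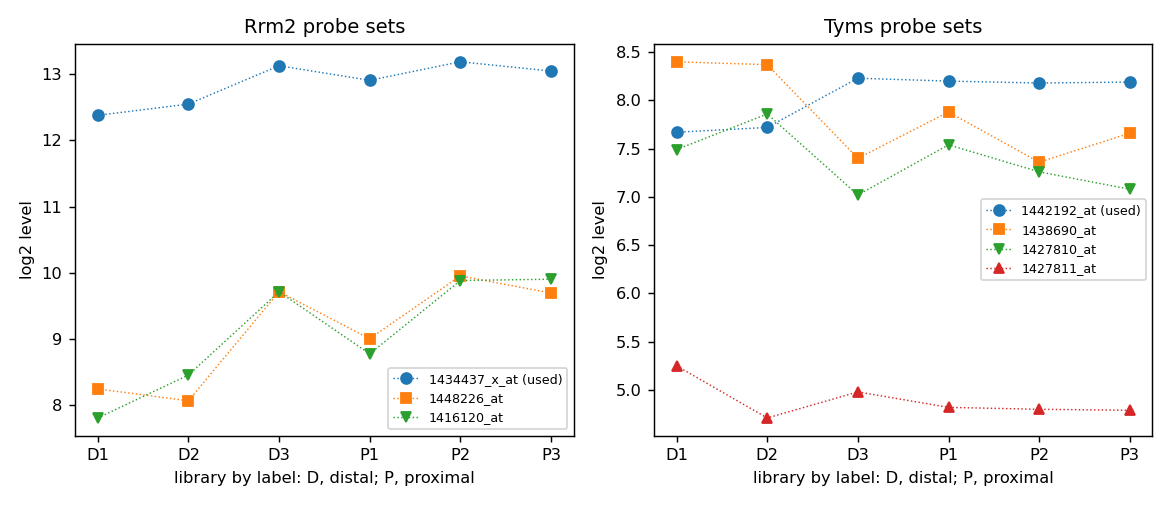
Log2 levels of the 3 probe sets of Rrm2 and the 4 of Tyms are plotted by library. All Rrm2 probe sets are lowest in distal 1 and 2, while for Tyms the probe set used is lowest there and the next brightest, at 8.40 and 8.37, is highest there.

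Of the regulators of entry into S phase, distal and proximal values were apart for Ccne2 and overlapped for Ccne1 and E2f1. Ccne2, cyclin E2, measured 8.81, 8.75 and 9.15 in distal 1, 2 and 3, against 9.34, 9.46 and 9.40 in proximal 1, 2 and 3. Every distal library was below every proximal library, the only member lower in distal for which this held. The difference was -0.50 (SE 0.13, limma adjusted p = 0.824, unadjusted p = 0.00898) as labelled and -0.65 (SE 0.11, limma adjusted p = 0.0155) without proximal 1 and distal 3. Ccne1, cyclin E1, had 9.89, 9.47 and 10.15 in distal 1, 2 and 3, against 9.54, 10.03 and 9.94 in proximal 1, 2 and 3, with the lowest values in distal 2 and proximal 1 and a difference of 0.00 as labelled (SE 0.22). Without proximal 1 and distal 3 Ccne1 differed by -0.31 (SE 0.17, limma adjusted p = 0.263), and its other probe set gave -0.46 and passed in the fit of each probe set (limma adjusted p = 0.0455). E2f1, an activator of S phase genes, had 9.02, 9.35 and 9.39 in distal libraries, against 9.56, 9.26 and 9.27 in proximal libraries, also without separation, and differed by -0.08 (SE 0.14) without proximal 1 and distal 3.

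All 7 measured cyclins and kinases of mitosis had distal 1 and 2 as their lowest libraries, while the order of the others varied. All 7 had differences below 0 in both comparisons. Cdk1, the kinase that drives entry into mitosis, measured 10.93, 10.75 and 11.49 in distal 1, 2 and 3, against 11.46, 11.41 and 11.49 in proximal 1, 2 and 3. Distal 3 thus matched the top proximal library, and proximal 1 lay with the other proximal libraries. The difference was -0.40 (SE 0.20, limma adjusted p = 0.824) as labelled and -0.61 (SE 0.12, limma adjusted p = 0.0254) without proximal 1 and distal 3. Aurka, the Aurora kinase of the spindle poles, had 9.70, 9.78 and 10.55 in distal 1, 2 and 3, against 10.04, 10.34 and 10.43 in proximal 1, 2 and 3. Here distal 3 was the highest library and proximal 1 lay between, and the difference without proximal 1 and distal 3 was -0.65 (SE 0.11, limma adjusted p = 0.0171). Plk1, the Polo kinase, had 9.67, 9.85 and 10.38 in distal libraries, against 9.93, 10.25 and 10.35 in proximal libraries. Its order was that of Aurka, with a difference of -0.54 (SE 0.12, limma adjusted p = 0.0355) without proximal 1 and distal 3 and -0.21 (SE 0.21, limma adjusted p = 0.831) as labelled.

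Aurkb, the Aurora kinase of the chromosomal passenger complex, had 9.81, 9.97 and 10.20 in distal 1, 2 and 3, against 10.20, 10.24 and 10.34 in proximal 1, 2 and 3. The top distal value equals the lowest proximal one, and the gene did not pass in either comparison (-0.27, SE 0.13, limma adjusted p = 0.824 as labelled; -0.40, SE 0.12, limma adjusted p = 0.0713 without proximal 1 and distal 3). Melk, a kinase that peaks in mitosis, had 10.12, 10.17 and 10.44 in distal libraries, against 10.40, 10.38 and 10.46 in proximal libraries. Melk differed by -0.28 (SE 0.11, limma adjusted p = 0.135) without proximal 1 and distal 3. Ccna2, cyclin A2, which acts in S phase as well as before mitosis, and Ccnb2, cyclin B2, differed by -0.35 (SE 0.12) and -0.44 (SE 0.13) without proximal 1 and distal 3 and did not pass (limma adjusted p = 0.0973 and 0.0748). A second probe set of Ccna2 gave -0.66 (SE 0.11) and passed in the fit of each probe set (limma adjusted p = 0.0143).

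**Figure D5:**
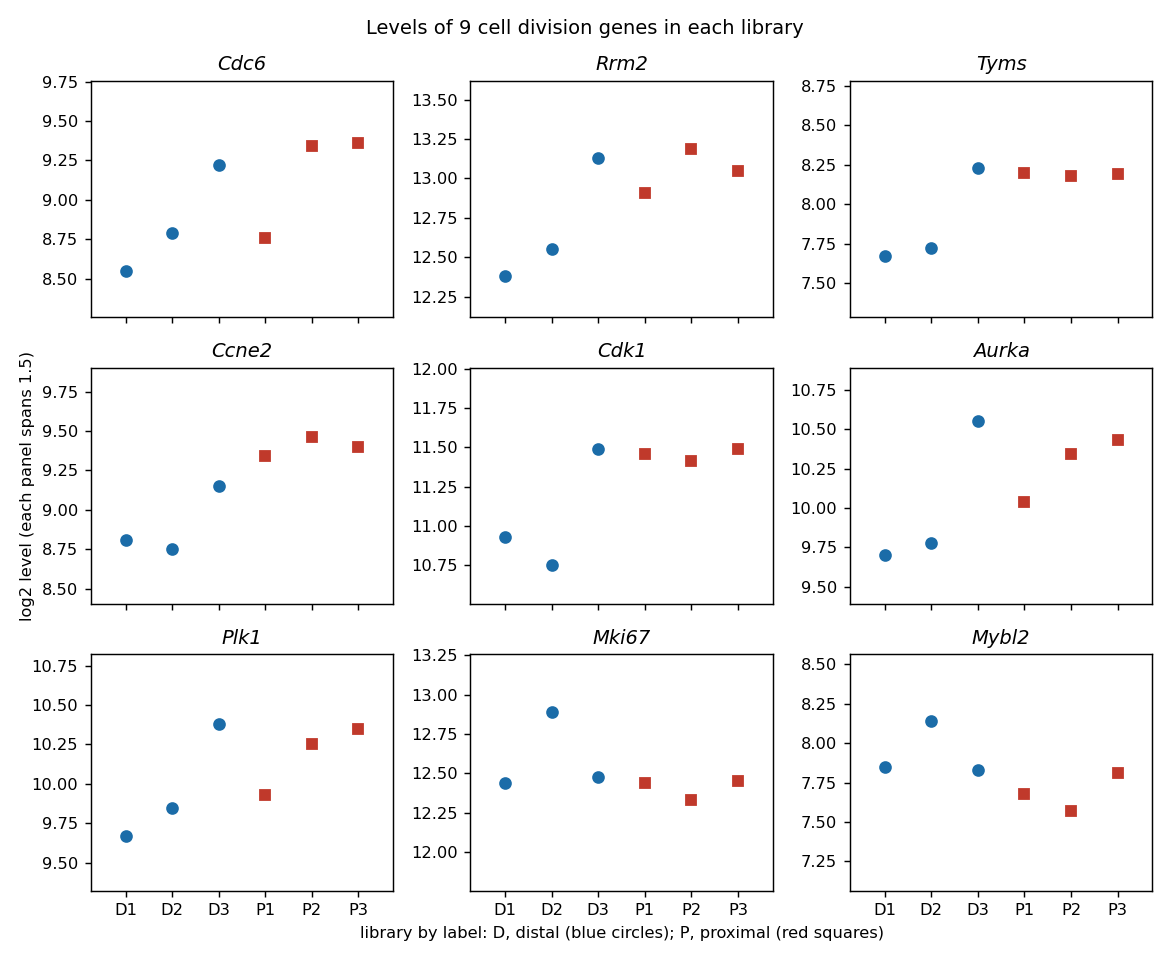
Log2 levels of the 7 genes that passed without proximal 1 and distal 3, and of Mki67 and Mybl2, are plotted by library, each panel spanning 1.5 log2 units. Distal 1 and 2 lie lowest in 6 of these 7 genes, with proximal 1 below distal 2 for Cdc6, while distal 2 is highest for Mki67 and Mybl2.

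Distal 1 was the lowest library for 4 of the 5 genes of the spindle checkpoint and of anaphase, and distal 2 for Ube2c. Mad2l1, which holds CDC20 until chromosomes are attached, measured 10.06, 10.53 and 10.91 in distal 1, 2 and 3, against 10.86, 10.85 and 10.90 in proximal 1, 2 and 3. Bub1, a checkpoint kinase at kinetochores, had 9.18, 9.58 and 9.81 in distal libraries, against 9.79, 9.80 and 9.90 in proximal libraries. In both genes the 4 other libraries lay close together, with distal 2 between them and distal 1. Ube2c, the ubiquitin carrier of the anaphase promoting complex, had 11.73, 11.57 and 12.28 in distal libraries, against 12.07, 12.15 and 12.06 in proximal libraries. Its difference was -0.46 (SE 0.12, limma adjusted p = 0.0511) without proximal 1 and distal 3, just short of the threshold. Without these libraries Mad2l1 differed by -0.58 (SE 0.18, limma adjusted p = 0.0786) and Bub1 by -0.47 (SE 0.16, limma adjusted p = 0.105). Cdc20, which activates the complex, and Bub1b, the checkpoint protein BUBR1, differed by -0.33 (SE 0.14) and -0.13 (SE 0.17).

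Genes of the centromere and chromosome were mixed. Cenpa, the histone variant of centromeres, had 10.23, 10.53 and 10.86 in distal 1, 2 and 3, against 10.96, 10.80 and 10.75 in proximal 1, 2 and 3. Birc5, survivin, a member of the chromosomal passenger complex, had 12.41, 12.61 and 12.83 in distal libraries, against 12.81, 12.81 and 12.88 in proximal libraries. Both were lowest in distal 1 and next lowest in distal 2, and neither passed without proximal 1 and distal 3 (-0.40 and -0.34, limma adjusted p = 0.108 and 0.117). Mki67, which encodes the proliferation marker Ki-67, did not share this order. It measured 12.44, 12.89 and 12.48 in distal 1, 2 and 3, against 12.44, 12.33 and 12.45 in proximal 1, 2 and 3, with distal 2 alone raised and a difference of 0.28 (SE 0.18, limma adjusted p = 0.332) without proximal 1 and distal 3. Cenpe, a kinetochore motor, differed by 0.01 (SE 0.18) and Top2a, the topoisomerase that untangles chromosomes, by -0.10 (SE 0.12) in that comparison. The other probe sets of Top2a gave 0.44 (SE 0.17) and -0.02, and that of Cenpe gave -0.12 (SE 0.22), so neither direction is settled.

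Among spindle and cytokinesis genes the order also varied. Kif11, the motor that separates spindle poles, had 9.74, 9.93 and 10.28 in distal 1, 2 and 3, against 10.06, 10.28 and 10.26 in proximal 1, 2 and 3. Kif20a, a motor of cytokinesis, had 9.66, 9.62 and 9.97 in distal libraries, against 9.73, 9.83 and 9.97 in proximal libraries. Both had distal 1 and 2 lowest, with differences of -0.44 (SE 0.12, limma adjusted p = 0.0584) and -0.26 (SE 0.11, limma adjusted p = 0.168) without proximal 1 and distal 3. A second probe set of Kif11 gave -0.64 and passed in the fit of each probe set (limma adjusted p = 0.0264). Kif23, a motor of the central spindle, had 10.65, 11.19 and 10.87 in distal libraries, against 10.69, 10.72 and 10.73 in proximal libraries, so that distal 2 was highest. A dimmer probe set of Kif23 gave -0.53 where the one used gave 0.20, so its direction is not settled. Tpx2, which activates Aurora A on the spindle, and Prc1, which bundles the central spindle, differed by 0.11 (SE 0.13) and -0.07 (SE 0.13). The second brightest probe set of Tpx2 gave -0.39, so its direction is not settled either.

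On the probe sets used, both activators of mitotic transcription were highest in distal 2. Mybl2, a subunit of the MuvB activator, measured 7.85, 8.14 and 7.83 in distal 1, 2 and 3, against 7.68, 7.57 and 7.81 in proximal 1, 2 and 3. Every distal value was above every proximal one, and the difference was 0.25 (SE 0.13, limma adjusted p = 0.824) as labelled and 0.31 (SE 0.15, limma adjusted p = 0.229) without proximal 1 and distal 3. Its other probe set gave -0.28 without proximal 1 and distal 3 and was highest in proximal 3 (7.54, against 7.52 in distal 2), so its direction is not settled. Foxm1, which activates the same genes later in the cycle, had 8.86, 9.46 and 9.13 in distal libraries, against 8.98, 9.17 and 9.29 in proximal libraries, with distal 1 lowest and distal 2 highest. Foxm1 differed by -0.07 (SE 0.21) without proximal 1 and distal 3, and a dimmer probe set of it gave -0.50 (SE 0.19, limma adjusted p = 0.126 in the fit of each probe set) and was highest in proximal 3. Of the 27 members with more than 1 probe set, all probe sets had the same sign without proximal 1 and distal 3 for 20, and of the 7 that passed this failed only for Tyms.

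Distal 1 was the lowest library for most other genes of the same machinery too. Of 44 other measured genes of DNA synthesis, 5 were lower in distal 1 and 2 than in proximal 2 and 3 and 0 higher (11.4% lower, against 11.5% of all genes), with a median difference of -0.25. Pold2, a subunit of the replicative polymerase delta, Pole2, a subunit of polymerase epsilon, and Rfc5, a subunit of the clamp loader, led with -0.74 (SE 0.11), -0.51 (SE 0.10) and -0.52 (SE 0.11), at limma adjusted p = 0.0115, 0.0286 and 0.0331. The 2 probe sets of Pole2 ran in opposite directions in that comparison, so its direction is not settled. Of 70 other genes of mitosis, 4 were lower and 0 higher (5.71% lower), with a median of -0.25, and the leading ones were the kinase Pbk (-0.63), Cenpw of the centromere (-1.09) and the centrosomal kinase Nek2 (-0.73). Both shares are at or below that of all genes. Distal 1 was the lowest library for 28 of the 44 and 52 of the 70 (63.6% and 74.3%, against 19.2% of all genes).

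Among G1 cyclins, their kinases and inhibitors, distal 1 was the lowest library for 6 of 26 genes (against 19.2% of all genes) and distal 2 for 11 (42.3%, against 28.2%). Of these 26 genes 5 were lower in distal 1 and 2 than in proximal 2 and 3 (19.2%, against 11.5% of all genes) and 1 was higher (against 7.71%), with a median difference of -0.09. Cdkn1c, an inhibitor of cyclin-dependent kinases, had 7.25, 7.20 and 7.86 in distal 1, 2 and 3, against 7.43, 8.09 and 7.94 in proximal 1, 2 and 3. It was lower without proximal 1 and distal 3 (-0.79, SE 0.11, limma adjusted p = 0.0108), and so was Cdkn2c, an inhibitor of CDK4 and CDK6 (-0.60, SE 0.13, limma adjusted p = 0.0308). Ccnd2, cyclin D2, was the higher one (0.51, SE 0.11, limma adjusted p = 0.0330), with 13.67, 13.80 and 13.01 in distal libraries, against 13.49, 13.24 and 13.21 in proximal libraries.

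Markers of several cell types moved between the same libraries, and their part in the cell division values was not tested. Of 12 epithelial markers 1 was lower in distal 1 and 2 than in proximal 2 and 3 (8.33%, against 11.5% of all genes) and 0 were higher. The lower one was the intestinal transcription factor Cdx2 (-0.88, SE 0.16, limma adjusted p = 0.0212). The next in order, Tspan8 (-0.28) and Vil1 (-0.27), did not pass. The list's mean level ran from 13.78 to 13.92 in distal and from 13.79 to 13.94 in proximal libraries. Of 16 crypt base markers 5 were lower (31.2%, against 11.5% of all genes), led by the secreted glycoprotein gene Olfm4 (-4.75), the RNA binding protein gene Msi1 (-1.31) and the receptor gene Tnfrsf19 (-0.80). Another 4 were higher (against 7.71% of all genes), Smoc2 (0.75), Rnf43 (0.62), Axin2 (0.52) and Znrf3 (0.50), which are named after their values were seen, and the median difference of the list was 0.28. The median deviation of the list stayed between -0.08 and 0.07 in all libraries. Probe sets of Tnfrsf19 and of Axin2 were split in direction without proximal 1 and distal 3, so neither gene is settled. Of 12 surface colonocyte markers 6 were lower (against 11.5% of all genes), with Guca2b (-1.23), Tmigd1 (-3.73) and Aqp8 (-0.72) in front. Only 1 was higher (against 7.71% of all genes), Car4 (0.60, limma adjusted p = 0.0333). Muc3 (0.20) and Slc26a3 (0.03) were above 0 and did not pass, and these 3 are named after their values were seen. The median deviation of the surface markers was -0.20, -0.18 and 0.19 in distal 1, 2 and 3, against -0.32, 0.24 and 0.26 in proximal 1, 2 and 3. Proximal 1 was thus low in surface markers, while the median of the mitosis genes there was 0.07 above their means.

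Immune and stromal markers moved too. Of 9 T and innate lymphocyte markers 5 were lower (55.6%, against 11.5% of all genes) and 0 higher in distal 1 and 2. The CD3 chain genes Cd3g (-2.39), Cd3e (-1.33) and Cd3d (-1.57) were in front. The list's mean level was 8.03, 8.16 and 9.12 in distal 1, 2 and 3, against 8.43, 9.29 and 9.55 in proximal 1, 2 and 3. Of 12 B and germinal centre cell markers 6 were higher (against 7.71% of all genes) and 0 lower (against 11.5%). The B cell surface genes Ms4a1 (2.18), Cd22 (1.70) and Cd79b (1.65) led, and Cd79a, Cr2 and Fcer2a passed too. Bcl6 (0.16), Gcsam (0.33), Mef2b (0.24), Pax5 (0.04), S1pr2 (-0.15) and Rgs13 (-0.47, limma adjusted p = 0.0502) did not pass. The count of 6 therefore does not show that germinal centre cells were raised. The list's mean levels were 8.0, 8.03 and 6.88 in distal libraries, against 7.88, 7.14 and 7.11 in proximal libraries. Of 12 macrophage markers 6 were lower (against 11.5% of all genes) and 0 higher, led by C1qa (-1.40), Fcgr1 (-1.0) and Ms4a7 (-0.87). Of 12 smooth muscle markers 1, Des (0.62), was higher (8.33%, against 7.71% of all genes), and Cnn1 (0.48) and Tagln (0.36) did not pass. Differences were above 0 for 11 of these 12, with a median of 0.25, where 56.1% of all genes were below 0. As labelled all 12 were above 0. Of 10 fibroblast markers 1, Fbln1 (0.97), was higher (10.0%, against 7.71% of all genes), while Col1a1 (0.34) and Pdgfra (-0.21) did not pass. Each of these differences leaves out proximal 1 and distal 3, except the counts given as labelled.

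Pancreatic acinar genes were high in 1 library of each label. The mean level of 10 acinar markers was 12.58, 7.19 and 7.38 in distal 1, 2 and 3, against 12.63, 7.18 and 6.98 in proximal 1, 2 and 3. Cela1 (1.74) and Clps (2.67), of an elastase and of colipase, passed (20.0%, against 7.71% of all genes higher), while Ctrl (2.38, limma adjusted p = 0.301) did not. These 2 were raised in distal 2 as well. Clps had 11.59 there, against 9.69 and 9.67 in proximal 2 and 3, and Cela1 had 13.43, against 12.00 and 12.01. Distal 1, the lowest library for 27 of the 39 cell division genes (69.2%, against 19.2% of all genes), was high in acinar genes. Proximal 1 was as high in them and was the lowest library for 3 of the 39 (7.69%, against 13.8% of all genes). Distal 2, with an acinar mean of 7.19, was the lowest for 7 (17.9%, against 28.2% of all genes). The part of acinar RNA in the cell division values was not tested.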

How the data were processed

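Mouse colon RNA was amplified to cDNA with NuGEN Ovation kits after homogenisation in Trizol, fragmented, labelled with biotin and hybridised to 1 array per library, per the labels' protocols. The deposited values are log2 expression per probe set, made by the authors with RMA in Partek 6.5 per the submitters' processing notes; the background setting is not given in the sources used here. RMA gives every array nearly the same distribution, which would remove any change common to most genes. Values were not rescaled. Of 45101 probe sets, 64 controls were left out, 34945 had 1 gene symbol, 932 had several and 9160 had none listed. Symbols were updated by gene identifier for 34741 of them, and the brightest probe set by mean stood for each of 18193 genes. The test was that of limma (version 3.58.1, R 4.3.3; lmFit with eBayes; two-sided), distal minus proximal, with p-values adjusted by Benjamini-Hochberg over the 18193 genes and a threshold of 0.05, once with all libraries as labelled and once without proximal 1 and distal 3. The code was tested on simulated data. The members, lists, role groups and tests were chosen with earlier results of these data known. Values of every library are given for the 3 members of each role group with the smallest unadjusted p as labelled and for members past the threshold in the comparison of 4 libraries. From every other list the 3 genes with the smallest p in that comparison are named. The alternatives tried were quantile normalization, median centring, averaging probe sets by gene, each probe set tested alone, a filter at the median gene mean (9.31, which kept 9099 genes), a trended robust variance prior, array weights, a threshold of 0.01, the number as a block and leaving out each library. Libraries with the same number were not shown to pair. The correlation of their deviations from the group means was 0.68, -0.45 and 0.68 for numbers 1, 2 and 3. It cannot decide pairing by animal, because proximal 1 and distal 3, which stand apart from their labels, shape these deviations. Promoters are RefSeq sequences of GRCm38.p6.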

Additional observations from a re-analysis of the deposited data

How the results depend on the processing

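As labelled, 0 members passed under quantile normalization, median centring, the mean of probe sets, each probe set alone, the filter on low values, the trended robust prior and the threshold of 0.01. With the number as a replicate block 0 passed; in this balanced design the block leaves each difference, and so the medians of -0.09 and -0.18, as they are by construction. Leaving out each of the 6 libraries gave 0 to 0 members. Array weights, which weighted proximal 1 at 0.322 and distal 3 at 0.291 against 6.72 for proximal 2, gave 18 members among 5579 genes (30.7%), and leaving out both proximal 1 and distal 3 gave 7. In the comparison of 4 libraries the count of 7 (19.2% of all genes passed) became 12 with each probe set alone in either direction (21.6% of probe sets), 11 of 34 with the filter on low values (35.6% of genes), 12 with the trended robust prior (25.2%), 10 with the mean of probe sets (21.3%), 6 with median centring (18.9%) and 0 at a threshold of 0.01. The 12 with each probe set alone counts genes with any probe set past the threshold, so it cannot be set against the share of probe sets. Leaving out any of the 4 libraries gave 0 to 0 members, with 146 to 1633 genes called in all. The filter leaves fewer genes to adjust over (9099), and a left-out library leaves 1 residual degree of freedom, with the spread of the lone library taken from the other label's pair; for the other settings the cause was not tested. The median of DNA synthesis members moved from -0.21 to -0.15 with the filter and with quantile normalization and to -0.12 with median centring, and ran from -0.26 to -0.16 as each library was left out, while the mitosis median of -0.33 was -0.24 with median centring and -0.28 with quantile normalization and ran from -0.40 to -0.25 as each library was left out. The median over all genes moved too, from -0.045 to 0.007 with quantile normalization and to 0.045 with median centring. Tyms reversed to 0.27 with the mean of probe sets. No detection calls were used, and precision is limited by how few arrays there are.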
